A study of Mus musculus with 14 samples.

Results

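The comparison described here sets Th2-polarised CD4+ T cells lacking 3 Argonaute genes against wild-type Th2 cells after 7 days of culture. All libraries whose titles name day 7 were taken, which gave 4 wild-type and 4 knockout libraries, 8 of the 14 in the series. No later library enters a mean, fold change or count of the comparison. The mice were C57BL/6J, and the series text calls the wild-type and knockout animals littermates. Naive T cells, sorted from spleen as CD4+ TCRb+ cells, were activated and driven towards the Th2 fate, and total RNA was sequenced as paired ends. The knockout genotype combines Ago1, Ago3 and Ago4, and both groups received the same culture. Which exons were removed from each gene, and whether the deletion was limited to T cells, could not be learned from the labels. They also do not say whether the libraries of one genotype came from separate mice or separate cultures, so the p-values measure only the spread between these libraries, which may be technical.

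Argonaute proteins hold microRNAs and carry them to matching sites in messenger RNAs. They recruit GW182 scaffold proteins (Tnrc6a, Tnrc6b and Tnrc6c), which bring in enzymes that shorten the poly(A) tail and remove the cap. Ago2 is the only mouse member able to cut its target, while Ago1, Ago3 and Ago4 act through the shared silencing machinery. Th2 cells are helper T cells that depend on the transcription factor Gata3 and on signalling from interleukin 4 through Stat6.

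Each library held between 23326248 and 35803197 counted reads, and 12534 to 12854 genes had at least 1 read. After a filter on low counts 10817 of 22598 genes were tested. Levels below are in CPM, the count scaled to a common library size, and are listed in the order of libraries 1 to 4 of each genotype. T cell genes were abundant in every library: Cd3d lay between 730 and 2470 CPM, and Gata3 between 456 and 587 CPM. The Th2 cytokines were low, with no read of Il13 in any library and 0.869 to 3.98 CPM of Il4. The T cell label therefore holds against its markers, while cytokine RNA of differentiated Th2 cells was not detected or scarce at collection. Knockout library 4 stood apart, with a first principal component score of 75.9 against 0.153 to 29.7 in the other knockout libraries and -54.2 to -7.16 in the wild-type libraries. Values without it are given beside most of the results that follow, and where a list or count depends on it the count without it is given too. In bulk RNA, fewer cells of one type and less RNA per cell cannot be told apart.

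The targeted Argonautes did not behave alike. Ago1, the member at chr4:126435012-126468583 on the GRCm38 build, had 3.7, 4.61, 4.23 and 5.21 CPM in the wild-type libraries and no read in any knockout library. Its 537 wild-type reads against 0 put it at least 156-fold lower in the knockout, taking a floor of 3 reads over the group (edgeR adjusted p = 0.000774, and 0.00105 without knockout library 4). Ago4, at chr4:126489541-126533472, went the other way, with 0.449, 0.36, 0.808 and 0.814 CPM in wild type and 3.51, 3.2, 3.24 and 2.71 CPM in the knockout. The genotypes did not overlap, and Ago4 rose by 2.39 ± 0.31 (log2 fold change ± SE, adjusted p = 0.018). Without knockout library 4 the Ago4 change was 2.45 (adjusted p = 0.0286). Leaving out wild-type library 1 or 2, or knockout library 3, ended this call, with adjusted p up to 0.105.

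Ago3, at chr4:126331704-126429556, had 4.46, 4.22, 2.77 and 3.01 CPM in wild type and 1.88, 2.15, 2.17 and 1.71 CPM in the knockout. Every knockout library was below every wild-type library, but the difference of -0.87 ± 0.23 did not pass the test (adjusted p = 0.0605). Without knockout library 4 it was -0.80. Reads of Ago3 and Ago4 were counted over each whole coding sequence. Since the deleted parts are not given, reads that remain in the knockout check the label of neither gene. Ago2, which was not targeted and lies on chromosome 15, was the most abundant Argonaute, at 122, 134, 123 and 121 CPM in wild type and 106, 103, 89.4 and 77.3 CPM in the knockout. The groups did not overlap, and the difference was -0.41 ± 0.13 (adjusted p = 0.0635), or -0.33 without knockout library 4. With GC content and coding length adjusted for in each library the Ago2 difference was -0.01. Per length, Ago2 had a mean of 20.0 RPKM in wild type, against 0.711 for Ago1, 0.577 for Ago3 and 0.0968 for Ago4 (the authors' RPKM values, which divide by coding width and library size).

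Across all genes, 13 passed an adjusted p of 0.05, which is 0.12% of those tested. Of these, 7 were higher in the knockout (0.0647%) and 6 were lower (0.0555%). The libraries of the 2 genotypes did not overlap for any of the 13, and the plot of called genes by library shows 12 of them. Without knockout library 4 the count was 14 (0.128%), 8 higher (0.0731%) and 6 lower (0.0549%), of which 10 were shared; Igkc and Mapk7 were among those no longer called. The 4 genes gained were Ndufs5, Ccdc28b, Mief2 and Gm8797, of which the last 3 are named only because they entered this count. The number of calls rested on single libraries far more than the leading genes did. It was 2456 without knockout library 1, 2286 without knockout library 2, 625 without wild-type library 4, and 8 to 14 when any other library was left out. Cap1, a, Slc30a3, Mgl2, Hdac1, Zbtb8a, Ago1 and Tanc1 were called in all 8 of these fits. Tyr was called in 7, the exception being knockout library 3 (adjusted p = 0.0781), Ago4 in 5, and Igkc and Mapk7 in 3 each. Identifiers in the names of the deposited tables set wild-type library 1 in another series of numbers than the other 7 libraries, and what the series stand for is not stated. Among those 7 libraries alone 9 genes were called, and Ago4, Igkc and Mapk7 were among those lost. With GC content and coding length adjusted for in each library, 22 genes were called (0.204%), 12 of the 13 among them and Igkc not. DESeq2 called 3102 and limma-voom 4957 of the 10817 genes tested, and their counts within the groups below are to be read beside these.

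**Figure D1:**
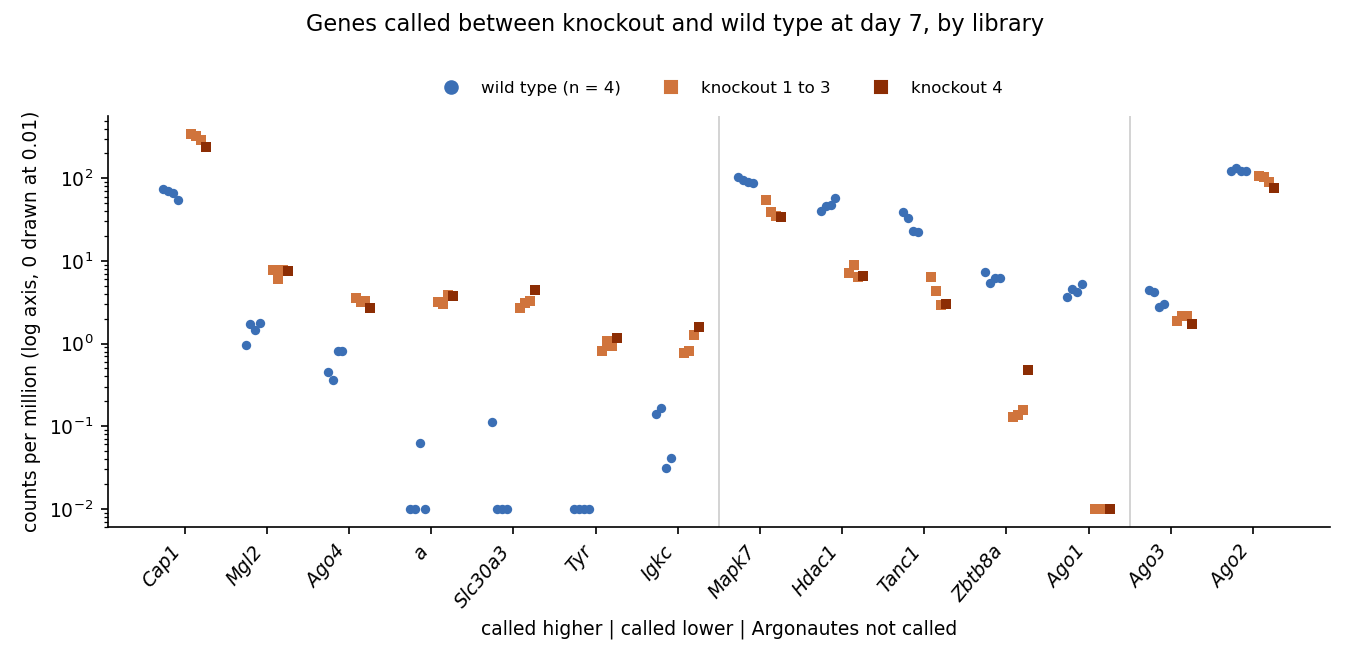
Level in CPM of 12 of the 13 called genes, and of Ago3 and Ago2, in each library at day 7 (log axis, libraries without a read drawn at 0.01). Circles are the 4 wild-type libraries, light squares knockout libraries 1 to 3 and dark squares knockout library 4; the genotypes do not overlap for any called gene shown, and Ago1 had no read in any knockout library.

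Outside the Argonautes, 3 of the called genes also lay on chromosome 4, within 5 Mb of the Argonaute cluster. Cap1 encodes a protein that helps recycle actin monomers, and it lies at chr4:122859047-122886056. It had 74.5, 69.8, 65.5 and 54.5 CPM in wild type and 340, 325, 294 and 240 CPM in the knockout. The lowest knockout library was more than 3 times the highest wild-type library, and Cap1 rose 4.53-fold (2.18 ± 0.15 in log2, adjusted p = 0.000349). Without knockout library 4 the log2 change was 2.27 (adjusted p = 0.000139).

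Hdac1, a class I histone deacetylase at chr4:129516104-129542713, had 39.8, 45.8, 47.1 and 57.8 CPM in wild type. In the knockout it had 7.11, 9.03, 6.39 and 6.56 CPM, all far below wild type. It fell by 2.71 ± 0.18 on the log2 scale (adjusted p = 0.000349), and by 2.66 without knockout library 4. Zbtb8a, a zinc finger gene at chr4:129353628-129378116, had 7.29, 5.4, 6.28 and 6.27 CPM in wild type against 0.128, 0.136, 0.157 and 0.481 CPM in the knockout. It fell by 4.82 ± 0.39 (adjusted p = 0.000752), and by 5.43 without knockout library 4, which held the highest of the low values.

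The neighbourhood of the cluster was described by distance. Of 19 tested genes within 1 Mb, other than the 3 Argonautes, none was called by edgeR at an adjusted p of 0.05 (DESeq2 called 11, limma-voom 14). An unadjusted p under 0.05 was reached by 12 of them (63.2%), beside 39.5% of the 10595 genes elsewhere. Between genotypes 36.8% did not overlap. From 1 to 5 Mb, 3 of 60 were called and 40.0% did not overlap. There, 16 were higher and 14 lower at an unadjusted p under 0.05. From 5 to 10 Mb, 0 of 140 were called by edgeR (36 by DESeq2, 62 by limma-voom). In that window 53 (37.9%) had an unadjusted p under 0.05, slightly below the share elsewhere. Of these 140 genes 24.3% did not overlap, close to the 25.1% elsewhere. DESeq2 and limma-voom called 3102 and 4957 of all 10817 genes tested. Ndufs5, a subunit of respiratory complex I that lies 2.61 Mb before the cluster, had 3.93, 2.78, 3.11 and 4.03 CPM in wild type and 0.171, 0.477, 0.441 and 1.09 CPM in the knockout. Its difference of -2.67 missed the threshold with all 8 libraries (adjusted p = 0.0605) and passed it without knockout library 4 (-3.20, adjusted p = 0.0106). Close to Hdac1, and named after their values were seen, Ccdc28b had a difference of 1.49 and Dcdc2b one of -2.87, both at an adjusted p of 0.0605. When knockout library 4 was left out, these were 1.22 and -2.84. Neighbouring genes thus differed in both directions. Whether these genes carry sequence linked to the targeted alleles was not tested.

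**Figure D2:**
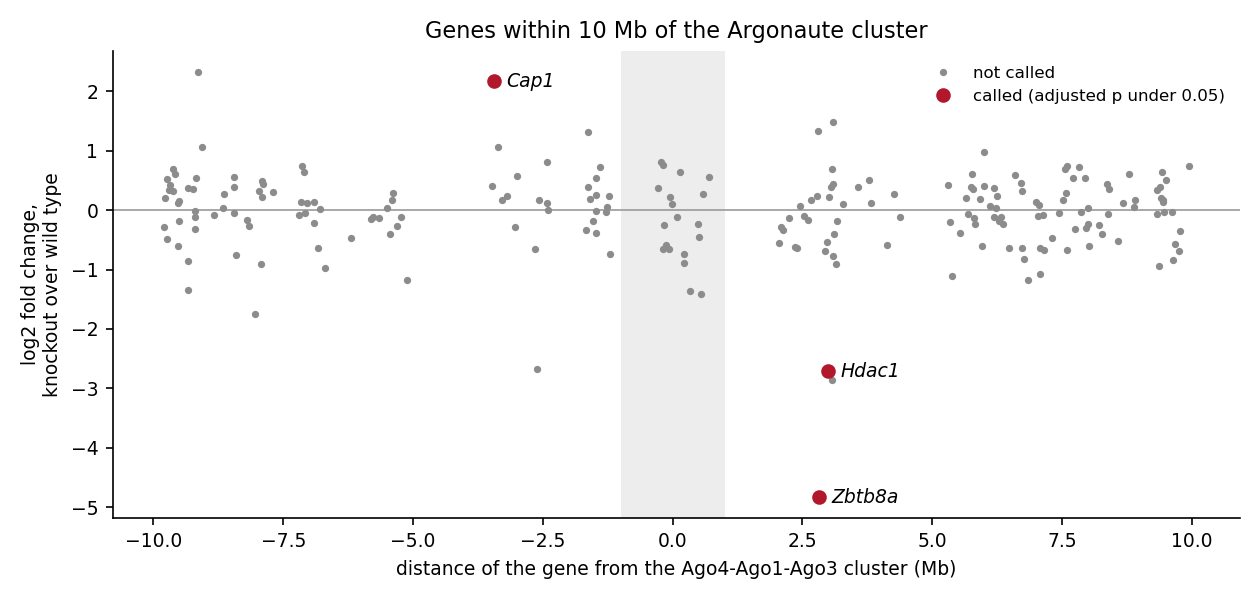
Log2 fold change of each tested gene within 10 Mb of the Ago3, Ago1 and Ago4 cluster against its distance in Mb, with the Argonautes left out and 1 Mb on either side shaded. Red points are Cap1, Zbtb8a and Hdac1, the 3 genes called by edgeR, which lie 1 to 5 Mb away. Within the shaded window edgeR called none of 19 genes, while DESeq2 called 11 and limma-voom 14, beside 3102 and 4957 of all 10817 tested.

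The remaining 8 calls lay on other chromosomes, 5 higher and 3 lower. Among the higher ones were a pair of pigment genes. The nonagouti gene a, which encodes a signal that switches melanocytes to yellow pigment, lies at chr2:154791402-155051012. It had 3.17, 3, 3.87 and 3.76 CPM in the knockout and 2 reads in all of wild type, against 371 reads in the knockout. The ratio was 213 (95% interval 58.4 to 1760, counting error only), with an adjusted p of 0.000671, and of 0.00105 without knockout library 4. Tyr, encoding tyrosinase, the enzyme that starts melanin synthesis, had no wild-type read and 0.813, 1.06, 0.944 and 1.18 CPM in the knockout (chr7:87424771-87493512). Its 107 knockout reads made it at least 40.9-fold higher (adjusted p = 0.0113, and 0.0367 without knockout library 4). Of the 14 listed pigment genes 6 could be tested, and a and Tyr were the 2 called by edgeR.

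Slc30a3, which moves zinc into vesicles and is best known from neurons, had 4 reads in wild type, all in library 1. In the knockout it had 2.7, 3.1, 3.24 and 4.42 CPM (chr5:31086106-31108237, log2 change 6.53 ± 0.66, adjusted p = 0.00383). Without knockout library 4 the Slc30a3 change was 6.38 (adjusted p = 0.00733). Of the other 19 tested zinc transporters and zinc-induced genes, none was called by edgeR (5 by DESeq2, 8 by limma-voom), and 1 was higher and 7 lower at an unadjusted p under 0.05, beside 20.0% and 19.6% of all genes. Leaving out knockout library 4, 3 were lower at that threshold, beside 16.0% of all genes. The zinc-induced metallothionein Mt1 had 0.308, 0.393, 0.839 and 0.61 CPM in wild type and 1.76, 1.4, 1.35 and 2.67 CPM in the knockout, without overlap (1.73 ± 0.39, adjusted p = 0.0605, and 1.48 without library 4). The zinc importer Slc39a14 was lower in every knockout library, at 4.94 to 9.98 CPM against 11.8 to 20.1 CPM (-1.07 ± 0.26, adjusted p = 0.0605, and -0.92 without library 4).

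Mgl2, a C-type lectin best known from macrophages and dendritic cells, lies at chr11:70130329-70137550. Wild type had 0.953, 1.7, 1.46 and 1.79 CPM and the knockout had 7.71, 6, 7.71 and 7.61 CPM. It rose by 2.30 ± 0.24 (adjusted p = 0.00401), and by 2.28 without knockout library 4. Igkc, the constant region of the immunoglobulin kappa chain at chr6:70726435-70726966, had 0.0311 to 0.164 CPM in wild type and 0.771, 0.818, 1.26 and 1.58 CPM in the knockout. It rose by 3.46 ± 0.51 (adjusted p = 0.0432), but without knockout library 4 the adjusted p was 0.0821.

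Of myeloid and dendritic cell markers, 9 of 28, among them Itgam, Itgax, Lyz1, Flt3 and Clec9a, had no read in any library. Their summed level was 80.7 to 111 CPM in wild type and 125 to 283 CPM in the knockout, or 125 to 141 CPM without library 4, and most of it was the protease gene Ctss. Of B cell markers 5 of 11 had no read, and the sum was 1.01 to 2.27 CPM in wild type and 1.43 to 4.46 CPM in the knockout. The part of such cells in the Mgl2 and Igkc calls was not tested.

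Tanc1, a scaffold protein described at synapses, fell most among the lower genes outside chromosome 4. It had 39.5, 32.9, 23 and 22.4 CPM in wild type and 6.38, 4.33, 2.93 and 3.02 CPM in the knockout (chr2:59612042-59846149, -2.82 ± 0.30, adjusted p = 0.00548). When knockout library 4 was left out, its adjusted p was 0.0237. Mapk7 encodes the kinase ERK5, and had 104, 95.3, 91.3 and 87.9 CPM in wild type against 54.4, 39.4, 34.8 and 34.3 CPM in the knockout. It fell by 1.22 ± 0.17 (chr11:61488812-61494406, adjusted p = 0.03), with an adjusted p of 0.0552 without knockout library 4. For Tanc1 and Mapk7 the differences were -2.08 and -0.82 once GC content and coding length were adjusted for.

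Below the threshold lay a broad difference between the genotypes. An unadjusted p under 0.05 was reached by 4283 genes (39.6%), 2159 higher (20.0%) and 2124 lower (19.6%). The lowest adjusted p beyond the 13 calls was 0.0605. The adjustment gave this same value to 865 genes whose unadjusted p-values differed, so it does not rank them. In all, 3590 genes (33.2%) had an adjusted p under 0.1, a threshold chosen after the data were seen. The count of 3590 rested on single libraries: it was 1512 without knockout library 4, 10 without knockout library 3, and 9, 12 and 11 without wild-type library 1, 2 or 3. It was 13 in the fit of all 14 libraries and 9 with a term for the series of identifiers. In 2726 genes (25.2%) the 4 libraries of one genotype did not overlap with those of the other, 1374 higher and 1352 lower. Leaving out knockout library 4 gave 3228 genes with an unadjusted p under 0.05 (29.5%) and 2835 without overlap (25.9%).

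The direction of this difference followed coding length. Tested genes were split by length into 5 bins of nearly equal size. In the bin of shortest genes, with up to 762 coding bases, the median log2 fold change was 0.47, and 809 of 2172 genes had every knockout library above every wild-type library against 26 with every one below. In the bin of longest genes, from 2502 bases up, the median was -0.65, with 14 of 2163 genes entirely above and 773 entirely below. The 3 bins between had medians of 0.22, 0.01 and -0.22. When knockout library 4 was left out, the medians ran from 0.34 to -0.53. For each library, the slope on coding length was taken of the log2 level relative to the mean of the same 8 libraries, so that the slopes sum to 0 and only differences between libraries can be read. It was 0.243, 0.241, 0.121 and 0.0352 per doubling in the wild-type libraries and -0.0592, -0.00945, -0.191 and -0.381 in the knockout libraries. The groups did not overlap, and the knockout mean was lower by 0.32 (SD 0.101 in wild type and 0.166 in the knockout, n = 4 each; 0.247 without knockout library 4; 2-sided exact permutation p = 0.0286, the smallest that 4 against 4 allows, 0.0572 after adjustment over length and GC content). For GC content the groups overlapped, and their mean slopes differed by 0.0034 per 10 points of GC (exact permutation p = 0.971). What makes the libraries differ by length, in the cells or in library preparation, was not tested. The adjustment for GC content and coding length takes out the trend of each library, and with it any genotype difference that runs with length. A smaller difference after the adjustment therefore does not tell where the trend comes from.

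**Figure D3:**
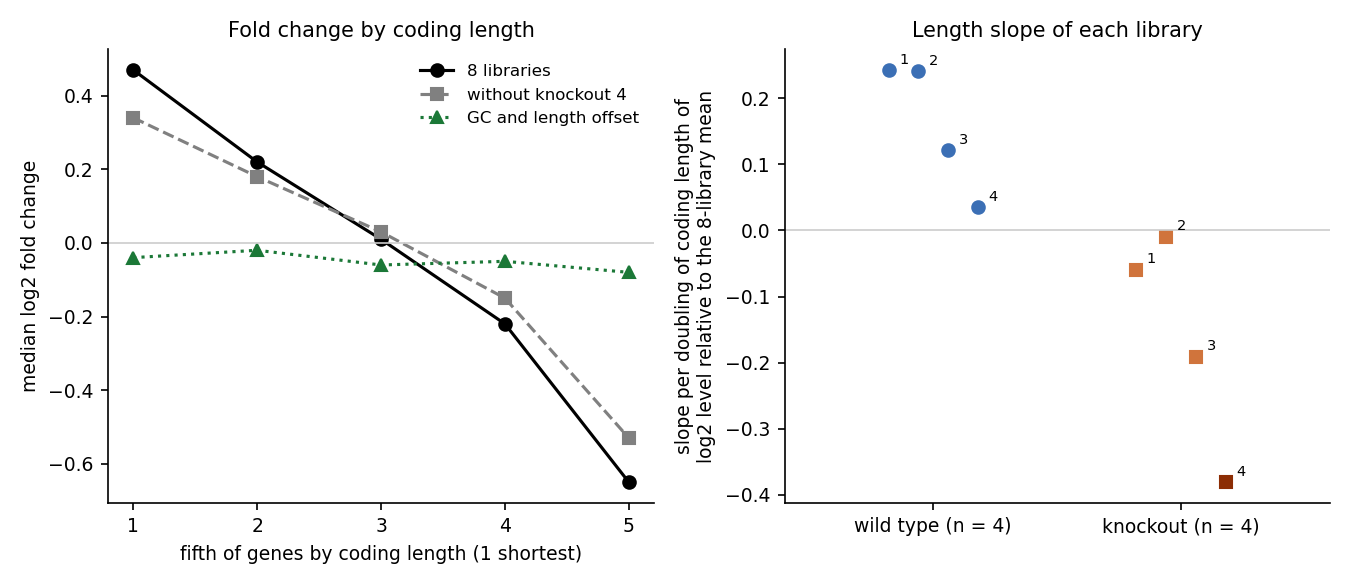
Left, the median log2 fold change in 5 bins of tested genes from the shortest to the longest coding sequence, with all 8 libraries, without knockout library 4, and with GC content and length adjusted for. Right, the slope per doubling of coding length in each numbered library, taken of the log2 level relative to the mean of the 8 libraries; every wild-type slope lies above every knockout slope, with knockout library 4 lowest at -0.381, and the place of 0 is set by that mean.

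Among genes of at least 5 CPM without overlap, the 8 largest increases were mostly carried by knockout library 4. Ly6c2, a surface protein of memory T cells and monocytes, had 0.336, 0.295, 0.559 and 0.61 CPM in wild type and 2.87, 1.06, 2.27 and 47.6 CPM in the knockout. Its difference was 4.90 with all libraries and 2.20 without library 4. For Ccr8, a chemokine receptor of Th2 and regulatory T cells, the knockout values were 17.1, 7.19, 9.88 and 114 CPM against 4.91 to 6.49 CPM in wild type, and the difference went from 2.76 to 1.06. Plac8 went from 3.38 to 1.74, Ms4a4c from 3.33 to 1.5, H2-Q6 from 2.44 to 1.49, Rsad2 from 2.31 to 1.53 and Ogfrl1 from 2.17 to 1.42. Cap1, at 2.18 and 2.27, was the only one of these 8 called by edgeR. DESeq2 also called Ccr8, H2-Q6, Rsad2 and Ogfrl1 (adjusted p of 0.0156, 0.011, 0.0382 and 0.000445). Of 362 genes more than 2-fold higher in the knockout, 136 were still past 2-fold without library 4, and library 4 was the highest knockout library in 342.

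The lower side depended less on that library. Of 685 genes more than 2-fold lower, 420 were still past 2-fold without library 4, though library 4 was the lowest knockout library in 556. After Tanc1 and Hdac1, the largest decreases without overlap were in Btbd11 (-2.11 with all libraries, -1.84 without library 4), the bacterial sensor Nod1 (-2.0 and -1.72) and the Rac exchange factor Prex1 (-1.89 and -1.65). Abca2, D5Ertd579e and the spindle protein Numa1 followed, at -1.84, -1.81 and -1.77 (-1.63, -1.62 and -1.52 without library 4). Numa1 had 1050, 878, 621 and 507 CPM in wild type and 363, 274, 164 and 93 CPM in the knockout. None of these 6 was called by edgeR, each at an adjusted p of 0.0605, while DESeq2 called all 6 (adjusted p from 5.33e-05 to 0.000335). With GC content and length adjusted for they lay between -1.53 and -1.03.

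Interferon-stimulated genes had a higher median than all genes, with the highest levels in knockout library 4 for most of them. These genes are switched on when type I interferon activates a transcription factor complex that contains Irf9 and binds the interferon-stimulated response element. Of 52 tested members, 40 were higher and 1 was lower at an unadjusted p under 0.05, beside 20.0% and 19.6% of all genes. None was called by edgeR at an adjusted p of 0.05, while DESeq2 called 33 higher and 1 lower and limma-voom 35 and 1, among 3102 and 4957 calls over all genes. Their median log2 fold change was 1.40, against -0.01 over all tested genes. Leaving out knockout library 4 gave a median of 0.89, with 28 higher and 1 lower beside 13.5% and 16.0% of all genes, and with GC content and length adjusted for it was 1.39. Of the 52, 7 were higher without overlap, a share close to the 12.7% of all genes. These were Rsad2, Mx2, Herc6, Trim30d, Epsti1, Phf11b and Trim30a, the last named after its values were seen.

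The letters GAAANNGAAA, a core form of the response element, were searched on both strands in promoter windows reaching 250 bases before to 50 after each gene start (RefSeq, GRCm38.p6). They occurred in 22 of the 42 tested interferon-stimulated genes with a window (52.4%) and in 3.87% of the 8506 tested genes with one. Matches can overlap, as in Isg15. For 6 of the genes described below that hold a match, the first match is given with its flanks. Capitals mark the searched letters or their reverse complement, read along the strand of the gene. These windows were picked for the letters, so their likeness there was fixed by the search. The windows are chr19:34640775-34640804 (+) for Ifit1, chr19:34583363-34583392 (+) for Ifit3, chr12:26456553-26456582 (-) for Rsad2, chr8:71537583-71537612 (-) for Bst2, chr4:156200877-156200906 (-) for Isg15 and chr14:59341361-59341390 (-) for Phf11b.
Ifit1: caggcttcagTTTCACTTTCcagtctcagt
Ifit3: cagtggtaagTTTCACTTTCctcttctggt
Rsad2: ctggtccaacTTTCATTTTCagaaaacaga
Bst2: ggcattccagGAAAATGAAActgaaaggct
Isg15: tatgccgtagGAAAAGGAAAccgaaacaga
Phf11b: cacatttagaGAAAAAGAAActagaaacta
A match describes the letters and is no evidence of binding in these cells, and a window without them, as for Irf7 and Herc6, says only that these letters are not in it.

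RNA-binding effectors had the highest median, 2.67 over 14 tested members (1.54 without knockout library 4). Of these, 10 were higher at an unadjusted p under 0.05, and also 10 without that library, beside 20.0% and 13.5% of all genes. Ifit1, which binds foreign RNA at its 5′ end, had 2.75, 13.3, 44.3 and 16.6 CPM in wild type and 120, 42.1, 81.7 and 374 CPM in the knockout. Wild-type library 3 was thus above knockout library 2, and the difference of 3.00 ± 0.86 did not pass the test (adjusted p = 0.0612, and 2.08 without library 4). Its partner Ifit3 had 0.168, 0.327, 2.39 and 1.14 CPM against 12.5, 1.6, 5.26 and 97 CPM, again with wild-type library 3 above knockout library 2 (4.85, and 2.67 without library 4). The exonuclease Isg20 had a difference of 2.67, and of 1.52 without library 4.

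All 9 tested membrane and trafficking effectors were higher at an unadjusted p under 0.05, with a median of 2.31 (1.53 without library 4), beside 20.0% of all genes. When knockout library 4 was left out, 5 of the 9 were higher at that threshold, beside 13.5% of all genes. Rsad2, which encodes viperin, had 0.645, 4.78, 10.7 and 8.75 CPM in wild type and 25.2, 12.2, 16.2 and 69.7 CPM in the knockout. The genotypes did not overlap, and the adjusted p was 0.0688. Bst2, which tethers budding virus particles, had 34.1, 47.3, 88.3 and 68.6 CPM against 164, 79.1, 138 and 551 CPM (1.97, and 1.09 without library 4). The entry inhibitor Ifitm3 had 1.04 to 4.75 CPM in wild type and 14.9, 3.61, 14.3 and 149 CPM in the knockout.

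The ubiquitin-like modifier Isg15 had 2.33, 6.64, 22.9 and 10.6 CPM in wild type and 56, 13.8, 37.9 and 314 CPM in the knockout (3.31, and 1.76 without library 4). Its conjugating enzyme Ube2l6 had differences of 3.14 and 1.46, and the ligase Herc6 of 1.02 and 0.61. Of the 4 interferon-induced sensors 3 were higher at an unadjusted p under 0.05, and 0 without library 4, beside 20.0% and 13.5% of all genes. The RNA helicase Ifih1 had a difference of 1.35 (0.60 without library 4), while Ddx58 had one of 0.26 ± 0.20 with overlapping libraries. The transcription factor Irf7 had 42.8, 79, 218 and 144 CPM in wild type and 434, 146, 263 and 1230 CPM in the knockout (2.10, and 1.22 without library 4). Parp14 was the 1 member lower, at -1.04 (-1.13 without library 4), and at -0.21 with GC content and length adjusted for. In the plot of interferon-stimulated genes, wild-type library 1 was the lowest and knockout library 4 the highest for most of them.

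**Figure D4:**
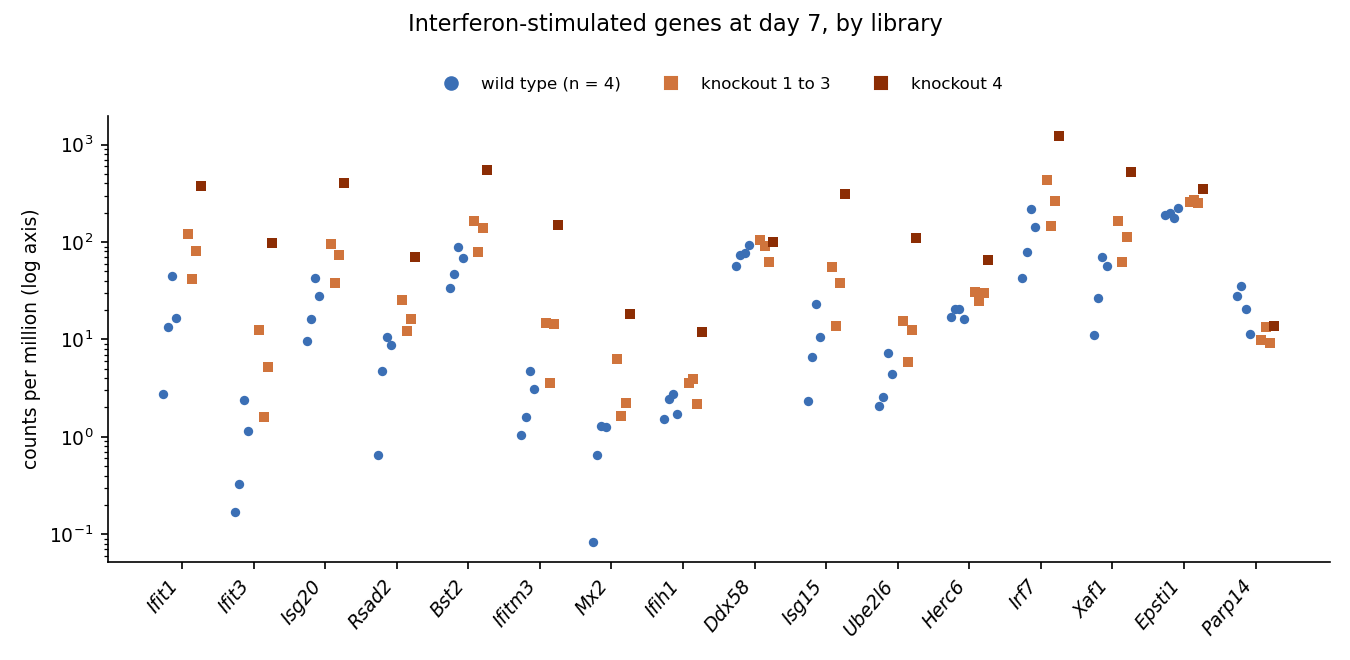
Level in CPM (log axis) of 16 interferon-stimulated genes in each day 7 library, with wild type as circles, knockout libraries 1 to 3 as light squares and knockout library 4 as dark squares. Knockout library 4 is the highest library for most genes, while wild-type library 3 and knockout library 2 overlap in Ifit1, Ifit3, Isg15 and Irf7.

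The genes upstream of this response did not share the pattern. Of 10 interferon ligands none had enough reads to be tested, and 7 had no read. The 7 tested receptors and kinases had a median of -0.36 (-0.20 without library 4). The kinase Tyk2 had 300, 254, 230 and 191 CPM in wild type and 176, 128, 88.7 and 56.8 CPM in the knockout (-1.12 ± 0.31, adjusted p = 0.0605, and -0.90 without library 4), while the receptor chain Ifnar2 had a difference of 0.44 (0.29 without library 4) with overlapping libraries. Tyk2 lay at -0.52 with GC content and length adjusted for.

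Targets of interferon gamma also had a median above that of all genes. Of 28 tested, 16 were higher and 2 lower at an unadjusted p under 0.05, beside 20.0% and 19.6% of all genes. Without library 4 these were 13 and 1, beside 13.5% and 16.0%. In 11 every knockout library was above every wild-type library, beside 12.7% of all genes. None was called by edgeR at an adjusted p of 0.05, while DESeq2 called 13 and limma-voom 16, among 3102 and 4957 calls over all genes. The median was 0.68, and 0.44 without library 4. Igtp, a GTPase that acts on pathogen vacuoles, had 97.4, 158, 247 and 217 CPM in wild type and 470, 284, 362 and 967 CPM in the knockout (1.54 ± 0.40, adjusted p = 0.0605, and 1.05 without library 4). B2m, the light chain of MHC class I, had 551, 649, 918 and 984 CPM against 1550, 1230, 2070 and 4650 CPM, with no overlap (1.62, and 1.06 without library 4). The immunoproteasome subunit Psmb9 had differences of 0.81 and 0.57, and its activator Psme1 of 0.67 and 0.49. Of the family of Igtp, Gbp6 had 0.785 to 1.62 CPM in wild type and 2.08 to 9.01 CPM in the knockout, and Iigp1 reached 14 CPM in knockout library 4 against at most 0.756 CPM in any other library.

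Markers of other cells did not all go the same way. MHC class II genes had a median of 1.59 over 7 tested members and 0.77 without library 4. At an unadjusted p under 0.05, 5 were higher (4 without it), beside 20.0% of all genes (13.5% without it). Their sum was 86.8 to 131 CPM in wild type and 119 to 382 CPM in the knockout. H2-Ab1, the beta chain of a class II molecule, had 5.24, 10.1, 18.2 and 16.7 CPM against 21, 17.5, 35.5 and 98.3 CPM. H2-Aa had 0.0814 to 0.28 CPM in wild type and 0.409 to 1.36 CPM in the knockout, without overlap (adjusted p = 0.0605), and the invariant chain Cd74 overlapped (1.93, adjusted p = 0.0638, and 1.19 without library 4). Genes of CD8 T and NK cells had a median of 0.91 (0.59 without library 4), with a sum of 31.0 to 49.7 CPM in wild type and 52.6 to 168 CPM in the knockout. Cd8b1 had 6.64 to 9.81 CPM in wild type and 10.5 to 20.7 CPM in the knockout, and Gzmb reached 63.3 CPM in knockout library 4. Mast cell and basophil genes summed to 34.1 to 68.4 CPM in wild type and 53.2 to 87.3 CPM in the knockout, almost all Cpa3. Yet the median of their 4 tested members was -0.56 (-0.99 without library 4). At an unadjusted p under 0.05, 2 were lower and 1 higher, beside 19.6% and 20.0% of all genes. There were 0 in either direction without library 4, beside 16.0% and 13.5% of all genes. The B cell gene Cd79b overlapped between genotypes. Red cell and platelet genes summed to at most 2.36 CPM in any library, and those of gamma delta and NKT cells to at most 5.59 CPM. The part of these cells in the interferon genes was not tested.

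Th2 genes had a median close to that of all genes. Of 21 tested members 5 were higher and 3 lower at an unadjusted p under 0.05 beside 20.0% and 19.6% of all genes, with a median of 0.16 (0.17 without library 4), and none was called by edgeR at an adjusted p of 0.05 (7 by DESeq2, 8 by limma-voom). Gata3 had 456, 501, 587 and 575 CPM in wild type and 558, 569, 571 and 478 CPM in the knockout, a difference of 0.04 ± 0.12, well inside the spread of the libraries. Il4 had 0.869, 1.34, 1.52 and 1.63 CPM in wild type and 1.46, 2.39, 3.49 and 3.98 CPM in the knockout, where only knockout library 1 overlapped with wild type (1.08 ± 0.35, adjusted p = 0.0646). Without library 4 the Il4 difference was 0.88 (adjusted p = 0.134). Il5 had 6 reads in the knockout and none in wild type.

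Stat6, which carries the interleukin 4 signal to the nucleus, had 859, 839, 864 and 808 CPM in wild type and 761, 610, 487 and 368 CPM in the knockout, without overlap (-0.60 ± 0.20, adjusted p = 0.0661, and -0.44 without library 4), and the receptor Il4ra had a difference of -0.60 as well (-0.47 without it). With GC content and length adjusted for, both lay at -0.24. Batf, a partner of Irf4 in effector T cells, had 33.4 to 40.4 CPM in wild type and 41.9 to 98.9 CPM in the knockout (0.78, and 0.48 without library 4). Il1rl1, the receptor for interleukin 33, had 12.4 to 25.6 CPM in wild type and 2.71 to 15.9 CPM in the knockout, with overlap (-1.11 ± 0.46, adjusted p = 0.108, and -0.81 without library 4). Of 11 tested Th1 genes 1 was higher and 2 lower at an unadjusted p under 0.05, beside 20.0% and 19.6% of all genes. The Th1 median was -0.33 (-0.07 without library 4), with Eomes at -1.49 and the chemokine Ccl5 at 2.27 (-1.31 and 1.17 without it).

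Receptors and surface genes that mark T cells have short coding sequences, with a median of 760 bases. Of 18 T cell identity genes 9 were higher and 2 lower at an unadjusted p under 0.05, beside 20.0% and 19.6% of all genes. Leaving out library 4 gave 7 and 2, beside 13.5% and 16.0% of all genes. None was called by edgeR at an adjusted p of 0.05 (8 by DESeq2, 12 by limma-voom). The median was 0.31, but with GC content and length adjusted for it was -0.03. In that fit 4 were higher and 4 lower, beside 1195 and 1868 of all 10783 genes tested. Cd3d had 730, 760, 939 and 950 CPM in wild type and 1230, 1020, 1550 and 2470 CPM in the knockout (0.89 ± 0.25, adjusted p = 0.0612, and 0.58 without library 4). Cd3g and Cd2 both had a difference of 0.68 (0.56 and 0.50 without it). The constant region of the T cell receptor alpha chain, Trac, had a difference of 0.55 (0.43 without library 4), and of -0.07 after that adjustment. Activation genes had a median of 0.39 (0.30 without library 4), with 5 of 14 higher at an unadjusted p under 0.05, beside 20.0% of all genes. Without library 4, 2 of 14 were higher, beside 13.5% of all genes. The costimulatory receptor Tnfrsf4 had 67.7, 92.3, 159 and 141 CPM in wild type and 239, 162, 252 and 739 CPM in the knockout (1.6, and 0.92 without library 4).

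Inhibitory receptors had a median of 0.82 over 6 tested members and 0.41 without library 4. In both cases 3 of them were higher at an unadjusted p under 0.05, beside 20.0% and 13.5% of all genes. Ctla4 had 28.8, 30.4, 30.3 and 33.8 CPM in wild type and 37.8, 42.3, 52.7 and 84.9 CPM in the knockout (0.82 ± 0.24, adjusted p = 0.0612, and 0.52 without library 4), and Tigit had 0.925 to 2.73 CPM against 3.65 to 15.6 CPM. Immediate early genes, which respond within minutes to receptor signals, had a median of 0.75 (0.48 without library 4), with 10 of 20 higher and 0 lower at an unadjusted p under 0.05, beside 20.0% and 19.6% of all genes. Without library 4, 6 were higher, beside 13.5% of all genes. Egr1 had 19.5, 24, 25.5 and 17.7 CPM in wild type and 39.4, 37, 36.7 and 181 CPM in the knockout, and the inhibitor of NF-kB Nfkbia had a difference of 0.90 (0.59 without library 4). Among naive T cell genes, the repressor Bach2 had 65.7 to 91.3 CPM in wild type and 35.1 to 51.1 CPM in the knockout (-0.86 ± 0.16, adjusted p = 0.0605, and -0.76 without library 4). Actn1 had a difference of -1.38, whereas Dapl1 and Ly6c1 had differences of 1.35 and 1.34 (-1.16, 1.01 and 0.83 without library 4).

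Genes of the respiratory chain and the ribosome had medians above that of all genes, and none was called by edgeR at an adjusted p of 0.05 (34 and 27 by DESeq2, 43 and 32 by limma-voom). Of 47 oxidative phosphorylation genes 39 were higher and 1 lower at an unadjusted p under 0.05, beside 20.0% and 19.6% of all genes. Leaving out library 4 gave 34 and 1, beside 13.5% and 16.0% of all genes. Of the 47, 32 were higher without overlap, beside 12.7% of all genes. The median of the 47 was 0.54, and 0.40 without library 4. Ndufs8, of complex I, had 127, 123, 140 and 144 CPM in wild type and 181, 161, 209 and 256 CPM in the knockout (0.60 ± 0.15), and the difference was 0.88 for Ndufa1 and 0.83 for Cox8a (0.46, 0.66 and 0.60 without library 4). The 1 lower gene was Ndufs5, described above. Of 43 ribosomal protein genes 34 were higher and 0 lower at an unadjusted p under 0.05 (25 and 0 without library 4). Over all genes the shares were 20.0% and 19.6%, and 13.5% and 16.0% without that library. The ribosomal median was 0.74, and 0.45 without library 4. Rpl32 had 818, 767, 913 and 889 CPM against 1240, 1040, 1490 and 2100 CPM, Rpl14 a difference of 0.66 and Rps20 of 0.59 (0.52 and 0.47 without library 4). Ribosomal protein genes have many near-identical copies, so their counts are uncertain. Both groups have short coding sequences, with medians of 519 and 567 bases against 1395 for all tested genes, and with GC content and length adjusted for their medians were 0.08 and 0.20.

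The machinery around the Argonautes had a median below that of all genes. Of 29 tested microRNA pathway genes 14 were lower and 1 higher at an unadjusted p under 0.05, beside 19.6% and 20.0% of all genes. Leaving out library 4 gave 13 and 1, beside 16.0% and 13.5% of all genes. Of the 29, 11 were lower without overlap, beside 12.5% of all genes. None was called by edgeR at an adjusted p of 0.05 (14 by DESeq2, 16 by limma-voom). The median was -0.56, -0.43 without library 4, and -0.26 with GC content and length adjusted for. Among processing and export genes, Drosha, which cuts the primary transcript, had 45.3, 48, 36.4 and 34.7 CPM in wild type and 26.8, 30, 19.7 and 13.6 CPM in the knockout (-0.87 ± 0.24, adjusted p = 0.0612, and -0.69 without library 4). Its partner Dgcr8 had a difference of -0.67, the exporter Xpo5 of -0.91, and Dicer1, which makes the mature duplex, of -0.66 (-0.43, -0.69 and -0.57 without library 4). Adjusted for GC content and length, these 4 lay at -0.26, -0.46, -0.39 and 0.09.

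All 3 GW182 scaffolds were lower at an unadjusted p under 0.05, with and without library 4, beside 19.6% and 16.0% of all genes. With GC content and length adjusted for, 0 of the 3 were lower at that threshold. In the whole pathway 11 of 29 were lower and 1 higher after that adjustment, beside 1868 and 1195 of all 10783 genes tested. Tnrc6b had 44.4, 42.6, 29.9 and 22.8 CPM in wild type and 19.9, 21.8, 17.8 and 18.7 CPM in the knockout (-0.84 ± 0.21, adjusted p = 0.0605), and Tnrc6a and Tnrc6c had differences of -1.09 and -1.02 (-0.82, -0.98 and -0.81 without library 4). After adjustment for GC content and length the 3 lay at -0.07, -0.33 and -0.26. Of the deadenylation genes, Cnot1, the scaffold of the CCR4-NOT complex, had 186, 162, 78.7 and 58.5 CPM in wild type and 42.4, 52.8, 32 and 20.5 CPM in the knockout (-1.72 ± 0.41, adjusted p = 0.0605), and Pan2 had a difference of -0.82 (-1.52 and -0.65 without library 4). In the decapping group the scaffold Edc4 had a difference of -1.17 (-0.96 without library 4), while the catalytic subunit Dcp2 was the 1 gene higher, with 5.55 to 6.54 CPM in wild type and 6.72 to 13.1 CPM in the knockout (0.65 ± 0.21, and 0.46 without library 4).

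Hdac1 was the only histone deacetylase called by edgeR, while DESeq2 called 10 members of the list and limma-voom 13. Of 18 tested histone deacetylases and partners, 10 were lower and 2 higher at an unadjusted p under 0.05, beside 19.6% and 20.0% of all genes. Leaving out library 4 gave 10 and 1, beside 16.0% and 13.5% of all genes. The median of the 18 was -0.35 (-0.27 without library 4, and -0.12 with GC content and length adjusted for). Hdac3 had 107 to 117 CPM in wild type and 79.9 to 98.8 CPM in the knockout (-0.31 ± 0.11, adjusted p = 0.0768, and -0.25 without library 4). Hdac7 had 98.9 to 164 CPM against 71.2 to 91.4 CPM (-0.67 ± 0.17), with -0.71 without library 4 and -0.06 after the adjustment. Cap1 was likewise the only edgeR call among 12 actin turnover genes (3 by DESeq2, 4 by limma-voom), whose median was 0.14. The monomer-binding Pfn1 had 1900 to 2320 CPM in wild type and 2530 to 3790 CPM in the knockout (0.55 ± 0.15, adjusted p = 0.0605), with 0.44 without library 4 and 0.01 after the adjustment.

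Splicing genes were counted as higher or lower in shares near those of all genes, which were 20.0% and 19.6% at an unadjusted p under 0.05. Of 14 SF3a and SF3b subunits 4 were higher and 3 lower (median -0.16). The large subunit Sf3b3 had 666, 764, 686 and 726 CPM in wild type and 585, 501, 337 and 229 CPM in the knockout (-0.78 ± 0.25, adjusted p = 0.0646), while the small subunits Phf5a and Sf3b5 had differences of 0.63 and 0.58. Without library 4 these were -0.58, 0.42 and 0.38. Adjusted for GC content and length, they were -0.27, -0.08 and -0.05. Of 45 other splicing genes 12 were higher and 7 lower (median 0.09), with the large U5 proteins Prpf8 at -1.03 and Snrnp200 at -1.42 (-0.89 and -1.22 without library 4). Nisch had 351 to 411 CPM in wild type and 191 to 299 CPM in the knockout (-0.55 ± 0.15, adjusted p = 0.061), with -0.43 without library 4 and 0.20 after the adjustment.

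Cell division and metabolic lists showed smaller or more local differences. Genes of G2 and M phase had a median of 0.51 with all libraries and 0.18 without library 4, with a sum of 311 CPM in that library against 153 to 183 CPM in the other 7, while 29 DNA replication genes had a median of 0.05. Of 24 cholesterol synthesis genes 12 were higher and 1 lower at an unadjusted p under 0.05, beside 20.0% and 19.6% of all genes (median 0.44). Without library 4, 7 were higher and 0 lower, beside 13.5% and 16.0% of all genes (median 0.28). Fdps was at 1.39 and Stard4 at 0.80, or 0.66 and 0.54 without library 4. The unfolded protein response had a median of 0.22 over 21 genes, with the factor Ddit3 at 0.84 and the sensor kinase Eif2ak3 at -0.97 (0.50 and -0.76 without library 4). The plot of gene lists sets these medians beside those without knockout library 4 and those with GC content and length adjusted for. Interferon-stimulated genes and MHC class II genes kept a median above 0.7 in all 3, whereas the medians of oxidative phosphorylation and T cell identity genes came within 0.1 of 0 after that adjustment.

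**Figure D5:**
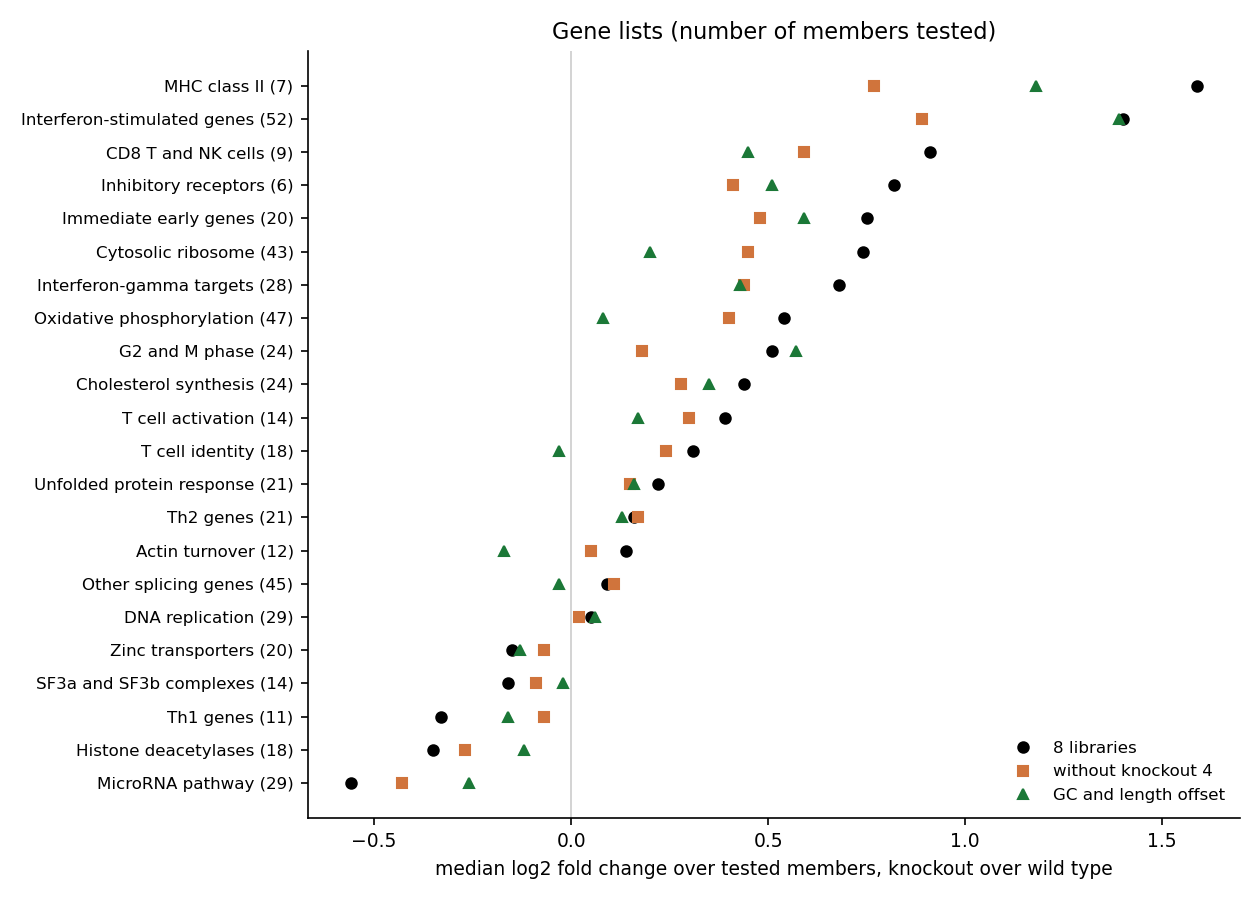
Median log2 fold change, knockout over wild type, of 22 gene lists (number of tested members in brackets) with all 8 libraries, without knockout library 4, and with GC content and coding length adjusted for. Of the 22 drawn, MHC class II and interferon-stimulated genes have the highest medians at 1.59 and 1.40, and microRNA pathway genes the lowest at -0.56.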

How the data were processed

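GSNAP (2013-11-01) and the GRCm38 build are named in the submitters' processing notes. No source names the read counter or says whether it used strand. The deposited tables hold 1 row per gene with a raw count, an RPKM value and the coding width; the count was tested, and the deposited RPKM was used only to compare genes per length. Rows were named with GENCODE vM21 (22457 of 22598 matched). Counts of the 8 day 7 libraries were filtered (filterByExpr), scaled by TMM and tested with edgeR 4.0.16 (R 4.3.3; robust quasi-likelihood test, 1 mean per genotype, Benjamini-Hochberg adjustment over all genes tested); CPM uses the same scaling. Alternatives used DESeq2 1.42.0, limma 3.58.1, other scalings and filters, all 14 libraries, a replicate block, a term for the series of identifiers in the table names, an offset per library from splines of GC content and coding length (5 degrees of freedom each), and each library left out. No set test was used: lists are described by counts and medians. The test was tried on simulated day 7 counts of 10716 genes, with 100 genes changed 2-fold and 100 changed 4-fold. It called 52% and 95% of these, and also 9 unchanged genes. Genes were drawn independently, without a length trend or an outlying library, so these rates need not hold for the real counts. Members and lists were chosen with earlier results of these data known. The values of 1 called gene and of 1 list member are not reported here. Genes are named if called, if an Argonaute, Sf3b3, Nisch, Il4, Il5, Il13, Il10 or Gata3, if among the 8 highest or lowest changes without overlap at 5 CPM or more, or if among the 4 lowest p-values of a described list or role or the most abundant marker of another cell type. The lists of Th17, regulatory and follicular T cells, heat shock, p53 targets and glycolysis had medians of -0.77, 0.24, 0.39, 0.20, 0.04 and 0.05.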

Additional observations from a re-analysis of the deposited data

Results flagged for a closer look

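In each genotype the 4 libraries were searched for 1 that lay far from the other 3, over the named genes, the list medians, the length slope and the first principal component. Of 283 such groups 30 held one, 26 of them knockout library 4. Of the 30, 29 were among 235 groups of single genes and 1 among 44 groups of list medians. By this rule no library was set apart on the length slope or the first principal component. The groups share the same libraries, and many genes were named for their changes in them. These counts are therefore not set against a rate expected by chance.

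Of the 26, 10 were genes of the interferon lists. In knockout library 4 Ifit3 was at 97 CPM, Isg20 at 405, Ifitm3 at 149, Isg15 at 314, Ube2l6 at 110, Herc6 at 65.9, Trim30d at 14, Phf11b at 52.7, Epsti1 at 351 and Iigp1 at 14, each above the other knockout libraries. The same library had 114 CPM of Ccr8, 52 of Ms4a4c, 36.7 of Plac8, 47.6 of Ly6c2, 25.6 of Ogfrl1, 67.9 of Ccl5, 739 of Tnfrsf4, 15.6 of Tigit, 181 of Egr1, 40.3 of Fdps and 264 of the protease Ctss. It was also high for Zbtb8a at 0.481 CPM and Gm8797 at 28.9 CPM, and low for Gata3 at 478 CPM and Mief2 at 9.28 CPM. Genes of G2 and M phase lay 0.91 (log2) above their mean over the 8 libraries there.

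The other 4 cases were single genes. Mgl2 was low in knockout library 2 at 6 CPM, Ago2 high in wild-type library 2 at 134 CPM, Plac8 low in wild-type library 1 at 0.477 CPM and Mief2 low in wild-type library 4 at 26.9 CPM. What sets knockout library 4 apart was not tested.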

How the results depend on the processing

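The count of 13 called genes was the least stable value. It was 3102 with DESeq2, 4957 with limma-voom and sample weights, 22 with GC content and coding length adjusted for, and 3590 at an adjusted p under 0.1. Leaving out each library in turn gave 8 to 2456. Other scalings, other filters, all 14 libraries and the term for the series of identifiers gave 9 to 16. The same 13 genes were among the calls of DESeq2 and of limma-voom, and the cause of the larger counts was not tested. Of the 12 called genes described, under 18 settings (214 fits), a call was lost in 21 fits and none changed sign.

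Libraries that share a replicate number did not deviate together in all 4 pairs (correlations of -0.131, 0.531, -0.137 and 0.303), so the numbers were not taken as a pairing. With the replicate number as a block 2778 genes were called, the same 13 among them.

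With GC content and coding length adjusted for, the differences of Nisch, Dicer1, Trac, Rps20, Phf5a and Sf3b5 changed sign, to 0.20, 0.09, -0.07, -0.08, -0.08 and -0.05. List medians moved by more than the spread between libraries to -0.17 for actin turnover, 0.45 for CD8 T and NK cells, 0.20 for ribosomal proteins, -0.12 for histone deacetylases, -0.26 for the microRNA pathway, -0.03 for other splicing genes, 0.08 for oxidative phosphorylation, -0.02 for SF3 subunits, 0.17 for T cell activation and -0.03 for T cell identity. Upper quartile scaling gave 0.13 for DNA replication and 0.19 for other splicing genes, and limma-voom gave -0.13 for DNA replication. With the term for the series of identifiers Gata3 was at -0.03, SF3 subunits at -0.03 and Th1 genes at -0.14. Leaving out single libraries gave ranges of -0.05 to 0.09 for Gata3, 0.41 to 1.04 for inhibitory receptors, 0.77 to 1.91 for MHC class II, 0.02 to 0.15 for other splicing genes, -0.29 to -0.01 for SF3 subunits and -0.41 to -0.07 for Th1 genes. Of 396 list medians recomputed, 373 stayed within that spread. Genes of a few reads, such as Il4 and Il5, are limited by depth.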
